A study of Mus musculus with 36 samples.

Results

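The genes described here encode 9 costimulatory and coinhibitory ligands, the surface proteins with which a presenting cell adjusts the response of a T cell that has bound its antigen. They are Cd80, Cd86, Cd83, Icosl, Cd274, Pdcd1lg2, Cd70, Tnfsf9 and Tnfsf4, named by their gene symbols, and they are 9 of the 18193 genes that the platform annotation of the array names alone on a probe set. Each gene was read from its probe set with the highest mean over all arrays. RNA was measured on 36 Affymetrix whole-genome mouse arrays from 6 cell populations that were sorted from the thymus of wild-type male C57BL/6J mice, with no treatment or engineered allele in any group. The populations were fibroblasts, Sirpa-positive and Sirpa-negative dendritic cells (Sirpa+ DC and Sirpa- DC), cortical thymic epithelial cells (cTEC), and medullary thymic epithelial cells gated as high (mTEChi) or low (mTEClo) for CD80 and MHC class II. Each population was sampled at ages of 1, 3 and 6 months, on 2 arrays per age, which gives 6 arrays per population and 12 per age. How cTEC and fibroblasts were gated is not given in the sources used here. Because CD80 protein defined the 2 medullary gates, the difference of Cd80 between mTEChi and mTEClo is given as a description without a test. The sample labels speak of 1 mouse each, while the series' description of the design speaks of 2 mice at each age. Arrays may therefore share animals, and the p-values then measure only the spread between these samples.

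T cells need a signal through CD28, which CD80 and CD86 deliver, in addition to recognition of antigen, while CTLA4 binds the same ligands and dampens the response. In the thymus these ligands are known for their part in the selection of regulatory T cells in the medulla, where mature epithelium and dendritic cells present self antigens. The PD-1 ligands encoded by Cd274 and Pdcd1lg2 deliver inhibitory signals, and the TNF family ligands CD70, 4-1BBL (Tnfsf9) and OX40L (Tnfsf4) bind CD27, 4-1BB and OX40 on T cells. CD83 is a surface marker of mature dendritic cells and, in the mouse, cTEC need it for the development of CD4 T cells.

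Values are log2 signals, so a difference of 1 is a 2-fold change. The level of 1 probe set cannot be set against that of another, and all comparisons are made within a gene. A gene was tested if it lay above log2 5.65, the median of all non-control values, on at least 2 arrays, which left 14497 genes and 8 of the 9 ligands. Tests were made with limma across all tested genes, and a gene was called between populations at an adjusted p under 0.05 and a difference of at least 2-fold, with ages weighted equally. Gene lists for the populations were chosen with earlier results of these data known, so they describe the samples and are no independent check of the labels. Of these lists, 7 of 7 fibroblast markers were higher in fibroblasts than in the mean of the other populations. For all DC, 4 of 5 markers were higher in the DC than in the epithelium. Of the cTEC markers, 6 of 7 were higher in cTEC than in the mTEC. Of 6 mTEChi markers, 4 were higher in mTEChi than in mTEClo, and 3 of 5 mTEClo markers were lower. Markers of thymocytes stood highest in the fibroblasts, where 14 of 14 were called higher and their mean on an array was 8.71 to 11.07, against 5.59 to 8.60 on the arrays of the 5 other populations. In cTEC 11 of 14 were called higher than in the mTEC. The median of the array means was 7.84 in cTEC, 5.94 in mTEChi and 5.89 in mTEClo.

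**Figure D1:**
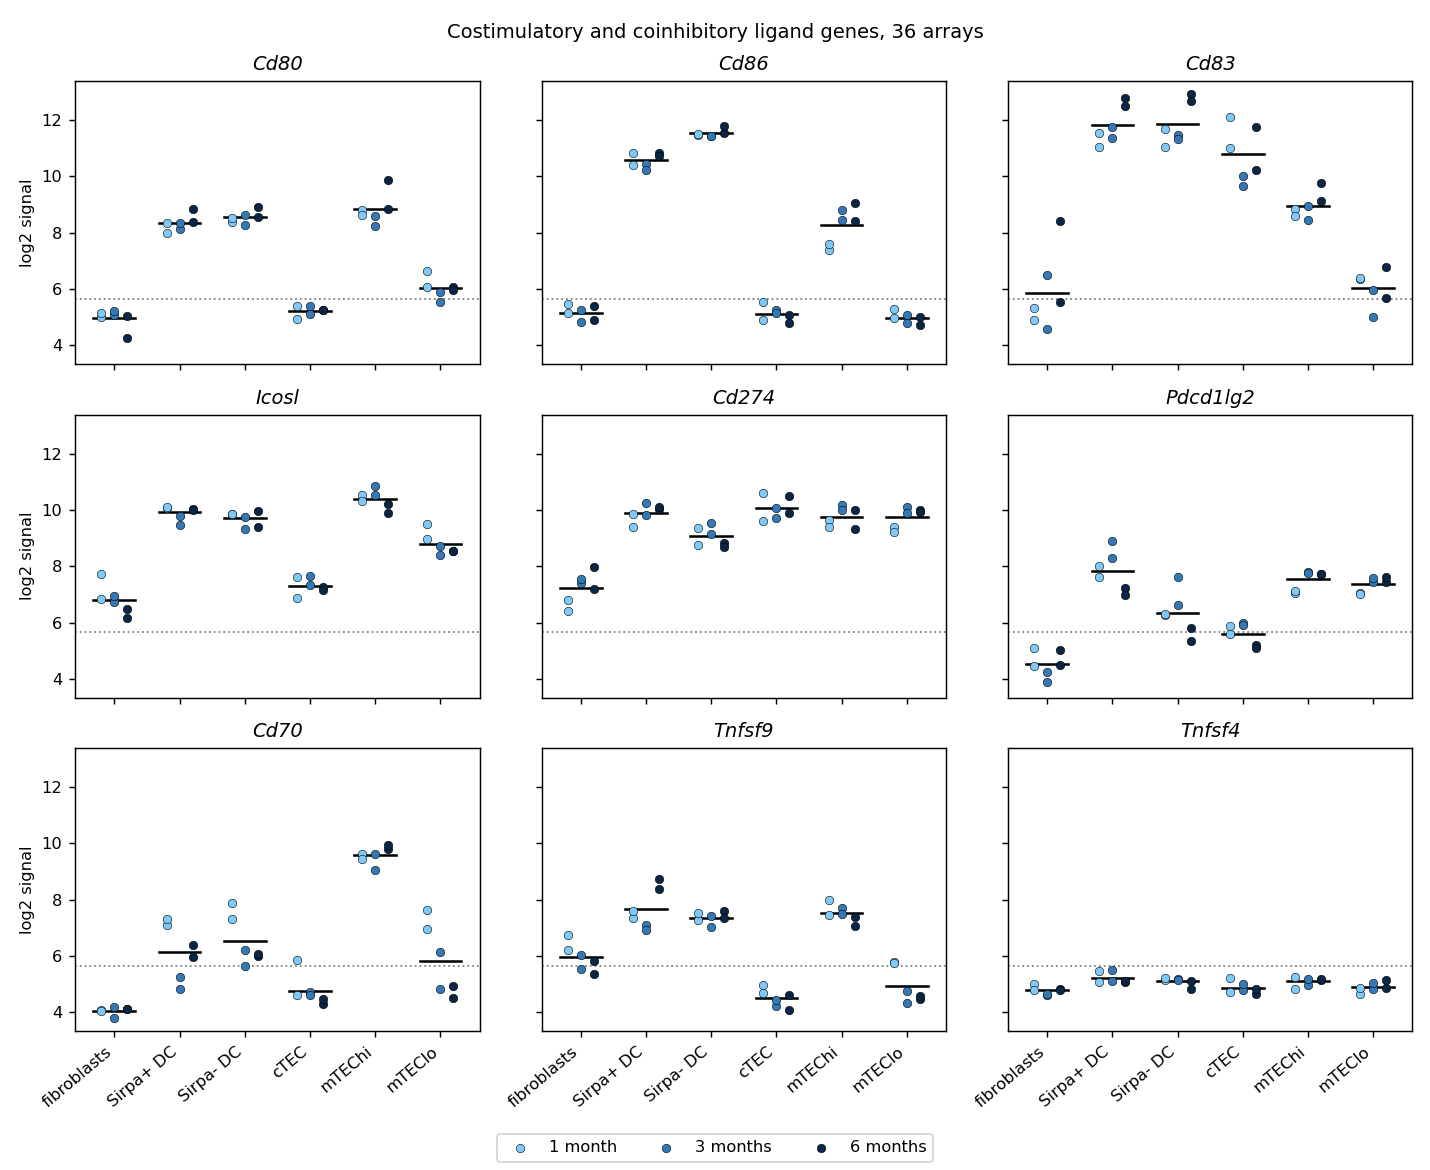
Log2 signal of each ligand gene (vertical axis) in the 6 populations (horizontal axis). Each point is an array, coloured by age, bars are means of 6 arrays, and the dotted line is the floor of log2 5.65. Cd274 differs little between the epithelial populations, Cd70 is highest in mTEChi, and Tnfsf4 lies under the floor on all 36 arrays.

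The ligands of CD28 and CTLA4 were found in the DC and in mTEChi and were low elsewhere. Cd80 (probe set 1451950_a_at) had a lowest, median and highest signal of 4.25, 5.07 and 5.21 in fibroblasts, 7.99, 8.35 and 8.85 in Sirpa+ DC, and 8.26, 8.54 and 8.93 in Sirpa- DC. In the epithelium it had 4.94, 5.26 and 5.39 in cTEC, 8.23, 8.72 and 9.88 in mTEChi, and 5.53, 6.01 and 6.63 in mTEClo. Every mTEChi array lay above every mTEClo array, by 2.80 on average, in the gene whose protein set the gate. None of the 6 cTEC arrays and none of the 6 fibroblast arrays passed the floor. In the order of means, mTEChi (8.83), Sirpa- DC (8.55) and Sirpa+ DC (8.34) were not separated between neighbours (limma adjusted p = 0.139 and 0.465), and mTEClo (6.03), next in the order, was lower than Sirpa+ DC (adjusted p = 5.24e-12). The DC exceeded the mean of the 3 epithelial populations by 1.75 ± 0.11 (SE, n = 12 against 18, limma adjusted p = 1.11e-13), and cTEC lay below the mean of both mTEC, with a difference of -2.20 ± 0.14 (n = 6 against 12, adjusted p = 2.82e-12). Both of these comparisons, and the steps of the order with mTEChi or mTEClo, include mTEC gated on CD80 protein. Their p-values for Cd80 are therefore a description and no independent test.

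Cd86 (1420404_at), whose product binds the same receptors, had a lowest, median and highest signal of 10.22, 10.58 and 10.82 in Sirpa+ DC, 11.43, 11.48 and 11.77 in Sirpa- DC, and 7.40, 8.43 and 9.04 in mTEChi. The 3 remaining populations were under the floor on every array, with 4.83, 5.20 and 5.46 in fibroblasts, 4.79, 5.11 and 5.55 in cTEC and 4.72, 4.98 and 5.29 in mTEClo. The 3 populations with signal did not overlap with the 3 without. Cd86 was not a sort gene, and it was 3.31 ± 0.14 higher in mTEChi than in mTEClo (9.92-fold, n = 6 each, limma adjusted p = 6.14e-16), the lower value being under the floor. It averaged 8.28 in mTEChi and 11.05 in the DC, a difference of -2.76 ± 0.12 (adjusted p = 1.62e-16), and no mTEChi array reached a DC array. Sirpa+ DC lay below Sirpa- DC without overlap by less than 2-fold, a difference of -0.95 (95% interval -1.24 to -0.66, adjusted p = 9.32e-06), which reached 2-fold (-1.02) without Sirpa+ DC replicate 2 at 1 month. In a bulk sample, fewer cells that carry a transcript and less RNA per cell cannot be told apart. Markers of macrophages, which also carry Cd86, were higher in mTEChi than in mTEClo for 6 of 7 genes, with array means of 7.14 to 7.83 in mTEChi and 5.34 to 6.24 in mTEClo. Of the DC lists, 3 of 6 markers of Sirpa- DC (Wdfy4, Batf3 and Irf8), 1 of 7 markers of Sirpa+ DC and 0 of 5 markers of all DC were called higher in mTEChi than in mTEClo. Itgax, which encodes the DC integrin CD11c, averaged 5.90 in mTEChi and 5.51 in mTEClo, and Wdfy4 8.09 in mTEChi and 5.49 in mTEClo. Of 6 B cell markers, 2 were higher in mTEChi than in mTEClo. The part of such cells in the Cd86 signal of mTEChi was not tested.

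Icosl (1419212_at), the ligand of ICOS, was above the floor on all 36 arrays. Its lowest, median and highest signals were 6.15, 6.77 and 7.72 in fibroblasts, 9.46, 10.02 and 10.10 in Sirpa+ DC, and 9.33, 9.79 and 9.97 in Sirpa- DC. In the epithelium they were 6.88, 7.30 and 7.63 in cTEC, 9.90, 10.42 and 10.86 in mTEChi, and 8.40, 8.63 and 9.51 in mTEClo. The 3 epithelial populations did not overlap with each other, with mTEChi highest and cTEC lowest. Icosl was 1.61 ± 0.15 higher in mTEChi than in mTEClo (adjusted p = 2.24e-09) and lower in cTEC than in both mTEC (a difference of -2.27 ± 0.13, limma adjusted p = 4.36e-13). The mean of mTEChi (10.39) was above that of Sirpa+ DC (9.91, adjusted p = 0.0089), and of the neighbours in the order the 2 DC were not separated (adjusted p = 0.398). The DC exceeded the 3 epithelial populations by 0.98 ± 0.10 (limma adjusted p = 2.45e-09), which is 1.97-fold and just short of a call. It reached 2-fold, with 1.00 to 1.02, without any 1 of 5 arrays: cTEC replicate 2 or mTEClo replicate 1 at 1 month, Sirpa- DC replicate 1 or Sirpa+ DC replicate 1 at 3 months, or Sirpa- DC replicate 2 at 6 months. When all probe sets of a gene were averaged, the Icosl difference between mTEChi and mTEClo was 0.81 (adjusted p = 3.16e-09) and the Cd80 difference between the DC and the epithelium 0.73 (adjusted p = 1.04e-10), both under 2-fold. The averages include probe sets of these genes that were under the floor on all arrays. They also include the second Cd80 probe set (1432826_a_at), above the floor on 18 arrays. It had means of 6.48 in Sirpa+ DC and 6.83 in Sirpa- DC, against 8.89 in mTEChi, 5.25 in mTEClo and 4.26 in cTEC.

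Of all pairs of tested ligands, Cd80 and Icosl were most alike over the 18 means of population and age (r = 0.94, a description, since the groups share populations). Sequence upstream of their starts is shown to set the 2 genes side by side, from RefSeq on GRCm38.p6, 250 bases before to 50 after the annotated start, both on the plus strand, for Cd80 at chr16:38458683-38458982 and for Icosl at chr10:78069118-78069417. Capitals mark a match to the NF-kB motif, searched on both strands.
Cd80: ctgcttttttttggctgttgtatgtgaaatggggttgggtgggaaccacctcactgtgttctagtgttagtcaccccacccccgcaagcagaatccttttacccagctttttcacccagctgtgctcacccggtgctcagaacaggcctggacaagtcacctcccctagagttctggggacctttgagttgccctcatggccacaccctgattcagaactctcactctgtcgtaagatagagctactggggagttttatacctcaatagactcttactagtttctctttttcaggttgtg
Icosl: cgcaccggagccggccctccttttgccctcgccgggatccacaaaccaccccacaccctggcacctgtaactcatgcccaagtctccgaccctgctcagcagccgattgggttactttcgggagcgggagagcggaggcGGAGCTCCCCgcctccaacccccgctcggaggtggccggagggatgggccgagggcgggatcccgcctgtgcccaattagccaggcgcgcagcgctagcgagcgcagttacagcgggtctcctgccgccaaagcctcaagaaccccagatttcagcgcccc
The Icosl window held 1 match, 111 bases before the start, and the Cd80 window none. Of 32817 mouse promoters of this length, 8.46% held a match. On chromosome 10, Icosl is the next gene but 1 to Aire, the regulator of tissue antigens in the medulla, with Dnmt3l between them.

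The PD-1 ligand genes lie next to each other on chromosome 19 and differed in where they were found. Cd274 (1419714_at), which encodes PD-L1, was above the floor on all 36 arrays and its signal was nearly level over the epithelium. Its lowest, median and highest signals were 9.59, 9.98 and 10.59 in cTEC, 9.32, 9.81 and 10.16 in mTEChi, and 9.23, 9.91 and 10.10 in mTEClo. In the other populations they were 6.39, 7.30 and 7.97 in fibroblasts, 9.40, 9.94 and 10.23 in Sirpa+ DC, and 8.69, 8.98 and 9.55 in Sirpa- DC. The epithelial populations and Sirpa+ DC overlapped, and no fibroblast array reached an array of another population. In the order of means cTEC (10.06), Sirpa+ DC (9.90), mTEClo (9.76) and mTEChi (9.75) were not separated between neighbours (adjusted p = 0.439, 0.499 and 0.963). Sirpa- DC (9.06) were below mTEChi (adjusted p = 0.00133), and fibroblasts (7.22) below Sirpa- DC (adjusted p = 1.62e-09). Between mTEChi and mTEClo the difference of Cd274 was -0.01 with a 95% interval of -0.38 to 0.36, and Sirpa+ DC exceeded Sirpa- DC by 0.84 ± 0.18 (limma adjusted p = 0.000752), under 2-fold.

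Pdcd1lg2 (1450290_at), which encodes PD-L2, had a lowest, median and highest signal of 6.98, 7.81 and 8.90 in Sirpa+ DC, 5.36, 6.28 and 7.63 in Sirpa- DC, 5.10, 5.74 and 5.98 in cTEC, 7.04, 7.73 and 7.80 in mTEChi, and 7.02, 7.44 and 7.61 in mTEClo. In fibroblasts it was 3.90, 4.47 and 5.09, under the floor on all 6 arrays. The 2 mTEC populations overlapped, and all cTEC arrays lay below all mTEC arrays. Pdcd1lg2 was lower in cTEC than in both mTEC (a difference of -1.83 ± 0.13, adjusted p = 2.42e-11), while the difference between mTEChi and mTEClo was 0.17 with a 95% interval of -0.15 to 0.50. It was 1.51 ± 0.16 higher in Sirpa+ DC than in Sirpa- DC (2.85-fold, limma adjusted p = 4.12e-08). The arrays of the 2 DC populations overlapped over all ages, and this was the only ligand of 8 called between them, where 5.37% of all tested genes were called (3.87% higher and 1.5% lower). Macrophage markers were also called higher in Sirpa+ DC for 6 of 7 genes, with array means of 10.66 to 11.43 in Sirpa+ DC and 7.33 to 9.34 in Sirpa- DC, and their part in the Pdcd1lg2 difference was not tested. Sirpa+ DC (7.84), mTEChi (7.53) and mTEClo (7.36) were not separated between neighbours (limma adjusted p = 0.0824 and 0.36).

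The upstream windows of these adjacent genes are shown because Pdcd1lg2 was called lower in cTEC than in the mTEC and Cd274 was not. Between the DC populations both were higher in Sirpa+ DC. The windows are again from RefSeq on GRCm38.p6 and on the plus strand, for Cd274 at chr19:29367188-29367487 and for Pdcd1lg2 at chr19:29410669-29410968. Capitals mark a match to the NF-kB motif.
Cd274: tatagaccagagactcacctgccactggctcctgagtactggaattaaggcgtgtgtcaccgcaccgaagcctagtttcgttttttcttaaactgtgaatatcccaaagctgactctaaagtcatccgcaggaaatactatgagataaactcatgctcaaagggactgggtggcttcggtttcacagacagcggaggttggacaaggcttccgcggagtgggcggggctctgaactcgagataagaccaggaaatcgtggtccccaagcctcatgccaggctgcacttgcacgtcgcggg
Pdcd1lg2: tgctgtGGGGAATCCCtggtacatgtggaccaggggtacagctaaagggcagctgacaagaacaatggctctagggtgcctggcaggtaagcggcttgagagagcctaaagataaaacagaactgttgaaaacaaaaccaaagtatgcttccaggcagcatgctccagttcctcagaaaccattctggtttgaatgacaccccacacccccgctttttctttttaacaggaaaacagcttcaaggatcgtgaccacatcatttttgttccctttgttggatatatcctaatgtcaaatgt
Pdcd1lg2 held 1 match, 244 bases before its start, and Cd274 none. A second motif, the interferon-stimulated response element which reads GAAA, any 2 bases and GAAA again and was searched on both strands, was in none of the 4 ligand windows and in 3.43% of all promoters of this length. The absence of these letters says only that they are not in these windows.

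Cd83 (1416111_at) was the one ligand gene that was called higher in cTEC than in the mTEC. Its lowest, median and highest signals were 9.67, 10.62 and 12.09 in cTEC, 8.44, 8.90 and 9.78 in mTEChi, and 4.99, 6.15 and 6.78 in mTEClo. Only the lowest cTEC array fell within the range of mTEChi. The DC had the highest signals, 11.04, 11.65 and 12.79 in Sirpa+ DC and 11.05, 11.58 and 12.93 in Sirpa- DC, and fibroblasts had 4.60, 5.43 and 8.40, with 2 of 6 arrays above the floor. Cd83 was 3.30 ± 0.32 higher in cTEC than in both mTEC (9.86-fold, n = 6 against 12, limma adjusted p = 3.61e-09) and 2.93 ± 0.37 higher in mTEChi than in mTEClo (adjusted p = 2.42e-07). Taken singly, cTEC (10.79) were above mTEChi (8.96, adjusted p = 0.000131) and below Sirpa+ DC (11.83, adjusted p = 0.0168). The 3 cTEC arrays with the most Cd83 were also the 3 with the most thymocyte signal. By array, at 1, 3 and 6 months, Cd83 was 12.09 and 11.02, 9.999 and 9.67, and 10.23 and 11.75. The thymocyte marker means of the same arrays were 8.60 and 8.09, 6.40 and 7.42, and 7.59 and 8.26. With that mean as a covariate Cd83 was still called in cTEC, with the smallest difference of all settings tried, 2.58 (limma adjusted p = 0.00578).

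Among the TNF family ligands, Cd70 (1449926_at) set mTEChi apart from all other populations. Its lowest, median and highest signals were 9.05, 9.62 and 9.94 in mTEChi and 4.50, 5.55 and 7.62 in mTEClo. They were 4.84, 6.18 and 7.32 in Sirpa+ DC, 5.65, 6.14 and 7.87 in Sirpa- DC, 4.30, 4.61 and 5.88 in cTEC, and 3.79, 4.10 and 4.18 in fibroblasts. All 6 mTEChi arrays lay above the 30 arrays of the other populations. Many of those were under the floor. Of 6 arrays each, 3 of mTEClo, 4 of Sirpa+ DC, 5 of Sirpa- DC, 1 of cTEC and 0 of fibroblasts were above it. Cd70 was 3.75 ± 0.21 higher in mTEChi than in mTEClo (13.4-fold, limma adjusted p = 1.1e-13) and 3.25 ± 0.18 higher in mTEChi than in the DC (9.51-fold, n = 6 against 12, limma adjusted p = 2.39e-14). No call was made between the DC and the 3 epithelial populations together, where the difference was -0.40 (95% interval -0.68 to -0.11).

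Tnfsf9 (1422924_at), which lies beside Cd70 on chromosome 17 with Tnfsf14 as the next gene, was shared by mTEChi and the DC. Its lowest, median and highest signals were 6.93, 7.47 and 8.74 in Sirpa+ DC, 7.02, 7.39 and 7.59 in Sirpa- DC, and 7.06, 7.47 and 7.98 in mTEChi. They were 5.35, 5.93 and 6.75 in fibroblasts, 4.08, 4.53 and 4.97 in cTEC, and 4.35, 4.67 and 5.78 in mTEClo. All cTEC arrays were under the floor, and 2 of 6 mTEClo arrays were above it. Tnfsf9 was 2.57 ± 0.14 higher in mTEChi than in mTEClo (limma adjusted p = 1.04e-13) and differed by -0.01 between mTEChi and the DC (95% interval -0.27 to 0.25). It was the one ligand not called lower in fibroblasts than in the mean of the other populations (a difference of -0.45 ± 0.11, adjusted p = 0.000964, under 2-fold). Tnfsf4 (1421744_at) had 4.62 to 5.50 over all arrays and was not above the floor on any, so it was not tested and no order of its levels is given.

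**Figure D2:**
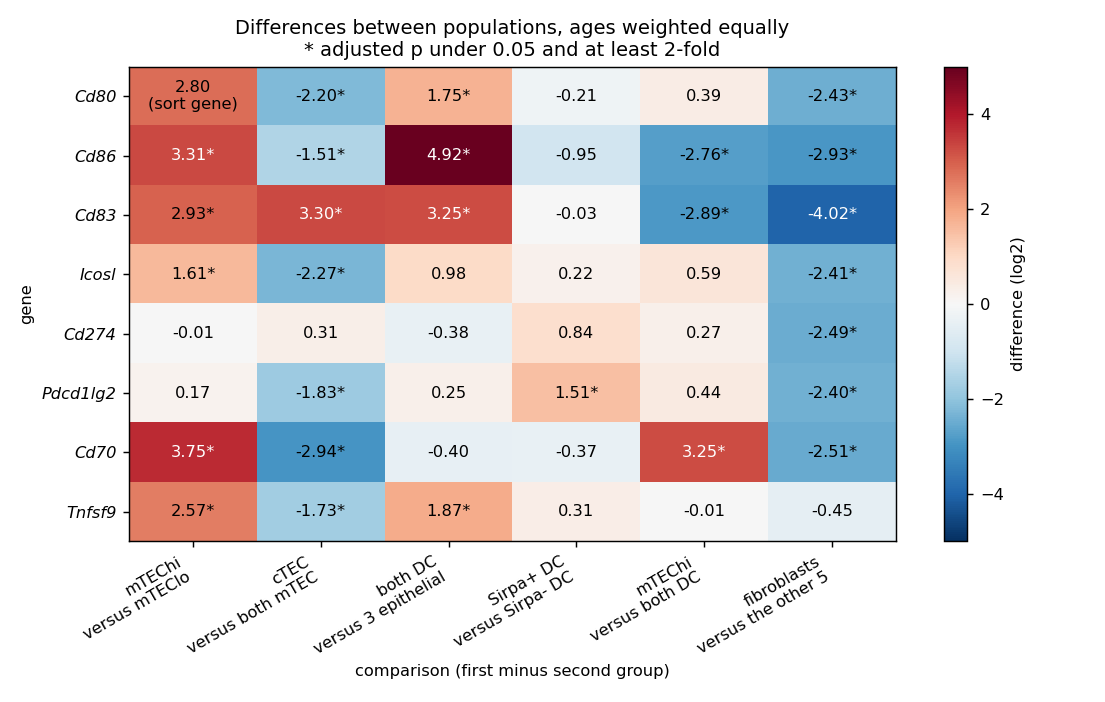
Log2 differences of the 8 tested ligand genes (rows) in 6 comparisons of populations (columns), first group minus second. Stars mark calls, and the Cd80 cell marked as a sort gene has no test. The column of mTEChi against mTEClo is positive for 6 genes and near 0 for Cd274 and Pdcd1lg2, and the column of fibroblasts is negative throughout.

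Counted by comparison, 5 of 7 ligands other than Cd80 were called higher in mTEChi than in mTEClo and 0 lower, where 19.6% of all tested genes were called in either direction, 11.8% as higher and 7.81% as lower. The median difference of the 7 was 2.57, against -0.04 over all tested genes. In cTEC against both mTEC, 1 ligand was called higher and 6 lower of 8, with 13.6% of all genes called (5.4% higher and 8.24% lower) and a median of -1.78 against -0.02. Cd80, whose protein set the mTEC gates, is among the 8 here and in every later count of this paragraph. In the DC against the epithelium, 4 of 8 were called higher and 0 lower, with 24.5% of all genes called, 8.6% as higher and 15.9% as lower, and a median of 1.36 against -0.01. The Cd80 call among the 4 was lost with all probe sets averaged (0.73, limma adjusted p = 1.04e-10, under 2-fold). Between mTEChi and the DC, Cd70 was called higher and Cd86 and Cd83 lower, 3 of 8, which is close to the 27.2% called over all genes (18.2% higher and 8.98% lower). In fibroblasts against the other 5 populations, 7 of 8 were called lower, with 18.4% of all genes called, 8.37% as higher and 9.98% as lower, and a median of -2.46 against -0.04. In the same comparison 14 of 14 thymocyte markers were called higher in fibroblasts. In a fit that held the thymocyte mean as a covariate, the Icosl call in fibroblasts was lost (a difference of -1.55, adjusted p = 0.0566). In each gene's own order of populations, 23 of 40 neighbouring pairs of the ligands differed at an adjusted p under 0.05, against 25.7% of such pairs over all tested genes.

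The spread between the highest and the lowest population was wide for all tested ligands. It was 6.55 for Cd86, 5.98 for Cd83, 5.52 for Cd70, 3.87 for Cd80, 3.58 for Icosl, 3.31 for Pdcd1lg2, 3.18 for Tnfsf9 and 2.84 for Cd274, against a median of 1.13 over all tested genes. Cd86 stood at the 99.4th percentile of all tested genes by this range and Cd274, the lowest of the 8, at the 84.3rd. A gene that passes the floor through 1 population has to differ, so these ranges are a description.

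By correlation of the 18 means of population and age, the genes most like each ligand were named, with r as a description. Cd80 was most like Ncf1 (r = 0.98), a subunit of the phagocyte NADPH oxidase, followed by Pgap6 and Nostrin. Cd86 was most like Irf5 (r = 0.99), a transcription factor of myeloid cells, then Tspan33 and Adam23. Icosl was followed by Kcnk6 (r = 0.98) and by Cd40 (r = 0.97), the TNF receptor family member that induces costimulatory ligands in antigen-presenting cells, and then Pgap6. Tnfsf9 was closest to Cyba (r = 0.95), another oxidase subunit, then Ccdc88a and Ctsz, and Cd70 to AU040320 (r = 0.97), Ckm, the creatine kinase of muscle, and Aurkc. For Cd83 they were Lpar3 (r = 0.95), a lysophosphatidic acid receptor, Nadk and Rufy3. Likeness was lower for the PD-1 ligands, with Alcam (r = 0.93), Snn and Ell2 for Cd274 and Plet1 (r = 0.91), Relt and Stx7 for Pdcd1lg2.

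The receptors of the ligands, which act on T cells, were called higher in fibroblasts for 5 of 8 genes and lower for 0, with a median of 1.62 against -0.04 over all genes. Cd28, the receptor of CD80 and CD86, averaged 10.21 in fibroblasts and 6.35 in the mean of the other populations, a difference of 3.86 ± 0.22 (limma adjusted p = 9.65e-14), and Cd27, the receptor of CD70, was 3.79 higher. The thymocyte markers were high in the same arrays. In cTEC against the mTEC, where 11 of 14 thymocyte markers were called higher, Cd28 (2.15) and Cd27 (1.09) were higher as well, and 1 receptor was lower. In mTEChi against mTEClo 4 of 8 receptors were higher and 2 lower. Of all tested genes, 8.37% were called higher and 9.98% lower in fibroblasts. The shares were 5.4% and 8.24% in cTEC against the mTEC, and 11.8% and 7.81% in mTEChi against mTEClo. Tnfrsf9, which encodes 4-1BB, averaged 8.49 in mTEChi and 6.14 in mTEClo, a difference of 2.35 ± 0.15 (limma adjusted p = 1.14e-12).

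Genes of DC maturation, a list of 18 of which 17 were tested, were called higher in mTEChi than in mTEClo for 11 genes and lower for 0, with a median of 1.86 against -0.04 over all genes. Among them were Ccl22, a chemokine bound by CCR4 (3.60 ± 0.25), Eno2, an enolase (3.38), Ccr7, the homing receptor of migrating DC (2.68), and Tnfrsf9. In cTEC against the mTEC 12 of 17 were lower and 0 higher, such as Fscn1, the actin bundling protein fascin (-3.23 ± 0.27), and Cd40 (-2.32). In the DC against the epithelium 10 of 17 were higher and 0 lower, led by Ccr7 (4.41 ± 0.19) and Samsn1 (4.14). Between mTEChi and the DC, 2 of the 17 were higher and 7 lower, with Samsn1 at -2.91 and Eno2 at 2.22. Of all tested genes, 11.8% were called higher and 7.81% lower in mTEChi against mTEClo. The shares were 5.4% and 8.24% in cTEC against the mTEC, and 8.6% and 15.9% in the DC against the epithelium. In mTEChi against the DC they were 18.2% and 8.98%.

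Other ligands and adhesion partners of the B7, butyrophilin and TNF families formed a list of 24, of which 21 had a probe set and 18 were tested. In mTEChi against mTEClo 4 were higher and 2 lower, with a median of 0.26 against -0.04 over all genes. Lgals9, which encodes galectin 9, averaged 7.40 in mTEChi and 9.78 in mTEClo (a difference of -2.38 ± 0.12, limma adjusted p = 1.55e-14), and Vsir, the inhibitory ligand VISTA, 6.45 in mTEChi and 8.43 in mTEClo (-1.98). Cd40 was 1.86 and Btla, an inhibitory receptor, 2.37 higher in mTEChi. In the DC against the epithelium 7 were higher and 2 lower, with Btla (5.34), the CD2 ligand Cd48 (5.23) and Cd84 (3.50) higher and the adhesion gene Nectin3 (-5.07) lower. Fibroblasts had 3 higher and 4 lower than the other populations, with Cd40 at -3.51 ± 0.13 and Slamf1 at 2.09. Of all tested genes, 11.8% were called higher and 7.81% lower in mTEChi against mTEClo. The shares were 8.6% and 15.9% in the DC against the epithelium, and 8.37% and 9.98% in fibroblasts.

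**Figure D3:**
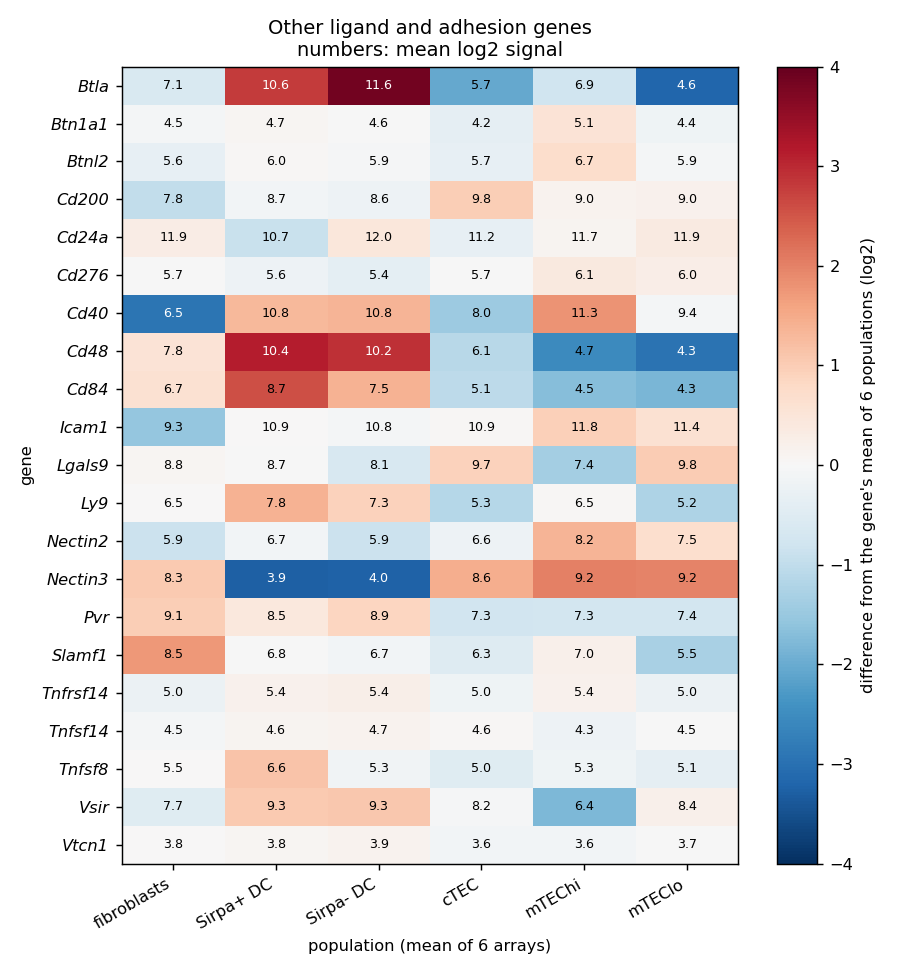
Mean log2 signal (numbers, n = 6 arrays) of 21 other ligand and adhesion genes (rows) in the 6 populations (columns), coloured by the difference from each gene's own mean over the populations. Cd48 and Btla are high in both DC, Nectin3 is low there, and Lgals9 and Vsir are lower in mTEChi than in mTEClo.

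With age, the ligand genes changed in different populations and in different directions. In mTEClo, Cd70 and Tnfsf9 were lower at 6 months than at 1 month, whereas Cd86 was higher at 6 months in mTEChi. In the DC, Pdcd1lg2 was lower at 6 than at 3 months in both populations and Tnfsf9 was higher at 6 months in Sirpa+ DC. Of the 8 ligands, 4 had changes with age that differed between populations in limma's moderated F-test over the 6 populations, Tnfsf9 (adjusted p = 0.0017), Pdcd1lg2 (adjusted p = 0.00185), Cd70 (adjusted p = 0.00425) and Cd86 (adjusted p = 0.0293), with 15.7% of all genes called in that test. Each of the 8 ligands was tested in the 18 comparisons of ages within populations. Of all these pairs of a ligand and a comparison, 18 were called at an adjusted p under 0.05. Over all tested genes, 6.74% of such pairs were called. Among the 18 calls, 6 were in fibroblasts, where 20.4% of all genes were called at 3 and 36.2% at 6 against 1 months. Only 2 arrays stand on each side of such a comparison, and the spread was estimated over all groups.

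In mTEClo the signal of Cd70 was 6.95 and 7.62 at 1 month, 6.16 and 4.82 at 3 months, and 4.50 and 4.94 at 6 months. Both arrays at 6 months were under the floor and both at 1 month above it. Cd70 fell by 2.57 on the log2 scale at 6 months against 1 month (a difference of -2.57 ± 0.36, limma adjusted p = 6.6e-05), with 6.42% of all genes called there. At 3 months against 1 month the difference was -1.80 (adjusted p = 0.00794, with 1.77% of all genes called), and that call was lost without replicate 2 at 1 month (-1.46, adjusted p = 0.202) or replicate 2 at 3 months (-1.13, adjusted p = 0.354). Tnfsf9, its neighbour on the chromosome, was 5.78 and 5.74 at 1 month, 4.75 and 4.35 at 3 months, and 4.48 and 4.59 at 6 months, so that its 1-month arrays were the only ones above the floor. It was lower at 6 months than at 1 month (-1.22 ± 0.25, adjusted p = 0.0027). Its difference of -1.21 at 3 months (limma adjusted p = 0.00867) was not called without replicate 1 (adjusted p = 0.0629) or 2 (0.0912) at 1 month, or replicate 2 at 3 months (0.212). These were the 2 ligands of 8 called in mTEClo, where 0 were called at 6 against 3 months (1 lower at an unadjusted p under 0.05, with 2.39% of all genes called), and both calls at 6 against 1 months held under every setting tried and with each array left out in turn. Aire fell in the same arrays, with 8.64 and 9.08 at 1 month, 7.57 and 6.71 at 3 months, and 6.48 and 7.08 at 6 months (-2.08 at 6 against 1 months, adjusted p = 2.23e-05), and so did Cd40 (-1.17, adjusted p = 0.0142). The other mTEChi markers were not called there at 6 against 1 months. They were Fezf2 (-0.46, limma adjusted p = 0.531), Spib (-0.55, 0.496), Ivl (-0.08, 0.878) and Krt10 (0.05, 0.94). The mean 3′ minus 5′ signal of control transcripts, a measure of RNA integrity, was 2.67, 2.48 and 1.91 in mTEClo at 1, 3 and 6 months. The part of the makeup of the mTEClo gate in these changes was not tested.

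In mTEChi neither gene was called with age. Cd70 was 9.63 and 9.45 at 1 month, 9.62 and 9.05 at 3 months, and 9.79 and 9.94 at 6 months. The gap of Cd70 between mTEChi and mTEClo was 2.90 ± 0.51 wider at 6 months than at 1 month, a test of the difference itself (limma adjusted p = 0.00171, with 6.56% of all genes called). Cd86 in mTEChi was 7.40 and 7.61 at 1 month, 8.80 and 8.44 at 3 months, and 9.04 and 8.42 at 6 months. Both arrays at 1 month were below the other 4. Cd86 was 1.23 ± 0.24 higher at 6 months than at 1 month (limma adjusted p = 0.0023, with 9.51% of all genes called), and the difference at 3 against 1 months, 1.12, had an adjusted p of 0.205, where limma called 0% of all genes and 2 ligands were higher at an unadjusted p under 0.05. The 6-month call was lost with array weights (adjusted p = 0.092) and in a fit of mTEChi alone (0.0713), and its size was 0.65 with both Cd86 probe sets averaged. The gap of Cd86 between mTEChi and mTEClo was 1.49 ± 0.34 wider at 6 months (limma adjusted p = 0.0107), a call lost without mTEClo replicate 2 at 1 month (adjusted p = 0.0581) or at 6 months (0.0532). In the same mTEChi arrays Aire (0.84, limma adjusted p = 0.0489) and Fezf2, another regulator of tissue antigens (1.33, 0.0242), were higher at 6 than at 1 month. So was the keratin gene Krt18 (0.88, 0.0226). The other mTEChi markers, Cd40 (0.68, 0.139), Krt10 (0.47, 0.304), Ivl (0.38, 0.244) and Spib (0.30, 0.697), were not called. Of the thymic epithelium markers, Krt8 (0.78, 0.104), Foxn1 (0.54, 0.304), Cdh1 (0.38, 0.706) and Epcam, which was lower (-0.75, 0.192), were not called either. The 7 macrophage markers had a median difference of 0.62 and were not called. The differences were positive for C1qb (1.30, limma adjusted p = 0.173), C1qa (0.99, 0.304), Cd68 (0.72, 0.117), Csf1r (0.62, 0.434) and C1qc (0.59, 0.651). They were negative for Adgre1 (-0.76, 0.123) and Mertk (-0.09, 0.94). The part of any of these genes in the Cd86 change was not tested.

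Cd80 in mTEChi, where the gate held the protein high, was 8.81 and 8.63 at 1 month, 8.23 and 8.58 at 3 months, and 8.85 and 9.88 at 6 months. One array at 6 months stood above the rest. The difference at 6 against 3 months was 0.96 ± 0.29 (limma adjusted p = 0.0412, with 7.87% of all genes called). It was 0.44 (adjusted p = 0.504) without that array, replicate 2, and was not called without replicate 1 (adjusted p = 0.253) or 2 (0.104) at 3 months either. It was also lost with all probe sets averaged (0.34, adjusted p = 0.22).

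In Sirpa+ DC, Pdcd1lg2 was 7.63 and 7.99 at 1 month, 8.31 and 8.90 at 3 months, and 7.23 and 6.98 at 6 months. In Sirpa- DC it was 6.27 and 6.30 at 1 month, 6.61 and 7.63 at 3 months, and 5.81 and 5.36 at 6 months. In both populations the 6-month arrays were the lowest and the 3-month arrays the highest. At 6 against 3 months the difference was -1.50 ± 0.27 in Sirpa+ DC (limma adjusted p = 0.00379, with 1.23% of all genes called) and -1.53 ± 0.27 in Sirpa- DC (adjusted p = 0.00651, with 0.29% called). The call in Sirpa+ DC was lost without replicate 1 (adjusted p = 0.0521) or 2 (0.0907) at 6 months. In Sirpa- DC it was lost without replicate 2 at 3 months (a difference of -1.02, adjusted p = 0.143) or at 6 months (0.2). The 3′ minus 5′ signal averaged 1.78, 1.75 and 1.47 in Sirpa+ DC and 1.80, 1.72 and 1.42 in Sirpa- DC at 1, 3 and 6 months. In Sirpa- DC the array means of the macrophage markers were 8.64 and 7.45 at 1 month, 7.33 and 9.25 at 3 months, and 9.27 and 9.34 at 6 months. The part of the macrophage markers in these changes was not tested. With the 3′ minus 5′ signal as a covariate, both Pdcd1lg2 calls held.

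Tnfsf9 in Sirpa+ DC was 7.35 and 7.59 at 1 month, 7.09 and 6.93 at 3 months, and 8.74 and 8.39 at 6 months, with the 6-month arrays above all others. It was 1.55 ± 0.25 higher at 6 than at 3 months (limma adjusted p = 0.00152) and 1.09 higher at 6 than at 1 month (adjusted p = 0.0182, with 2.06% of all genes called). Without replicate 1 at 6 months the adjusted p was 0.0702 against 3 months, and against 1 month it was 0.0532 to 0.316 without any 1 of the 4 arrays compared. In Sirpa- DC Tnfsf9 stayed between 7.02 and 7.59.

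Cd70 in Sirpa+ DC was 7.09 and 7.32 at 1 month, 5.27 and 4.84 at 3 months, and 6.40 and 5.96 at 6 months. In Sirpa- DC it was 7.30 and 7.87 at 1 month, 5.65 and 6.21 at 3 months, and 5.99 and 6.07 at 6 months. The 1-month arrays were the highest in both. The difference at 3 against 1 months was -2.14 ± 0.36 in Sirpa+ DC (limma adjusted p = 0.00439, with 0.331% of all genes called) and -1.65 in Sirpa- DC, which was not called (adjusted p = 0.136, with 0.0345% of all genes called). In Sirpa- DC the call was at 6 against 1 months (-1.55 ± 0.36, adjusted p = 0.0383, with 0.904% called). The Sirpa+ DC call was lost without replicate 2 at 1 month (adjusted p = 0.0698) or at 3 months (0.0574), and the Sirpa- DC call without any 1 of its 4 arrays (0.101 to 0.342). A difference between the 2 DC populations in the change from 1 to 6 months was called for 0 of 8 ligands by limma (1 at an unadjusted p under 0.05, with 0.0138% of all genes called).

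**Figure D4:**
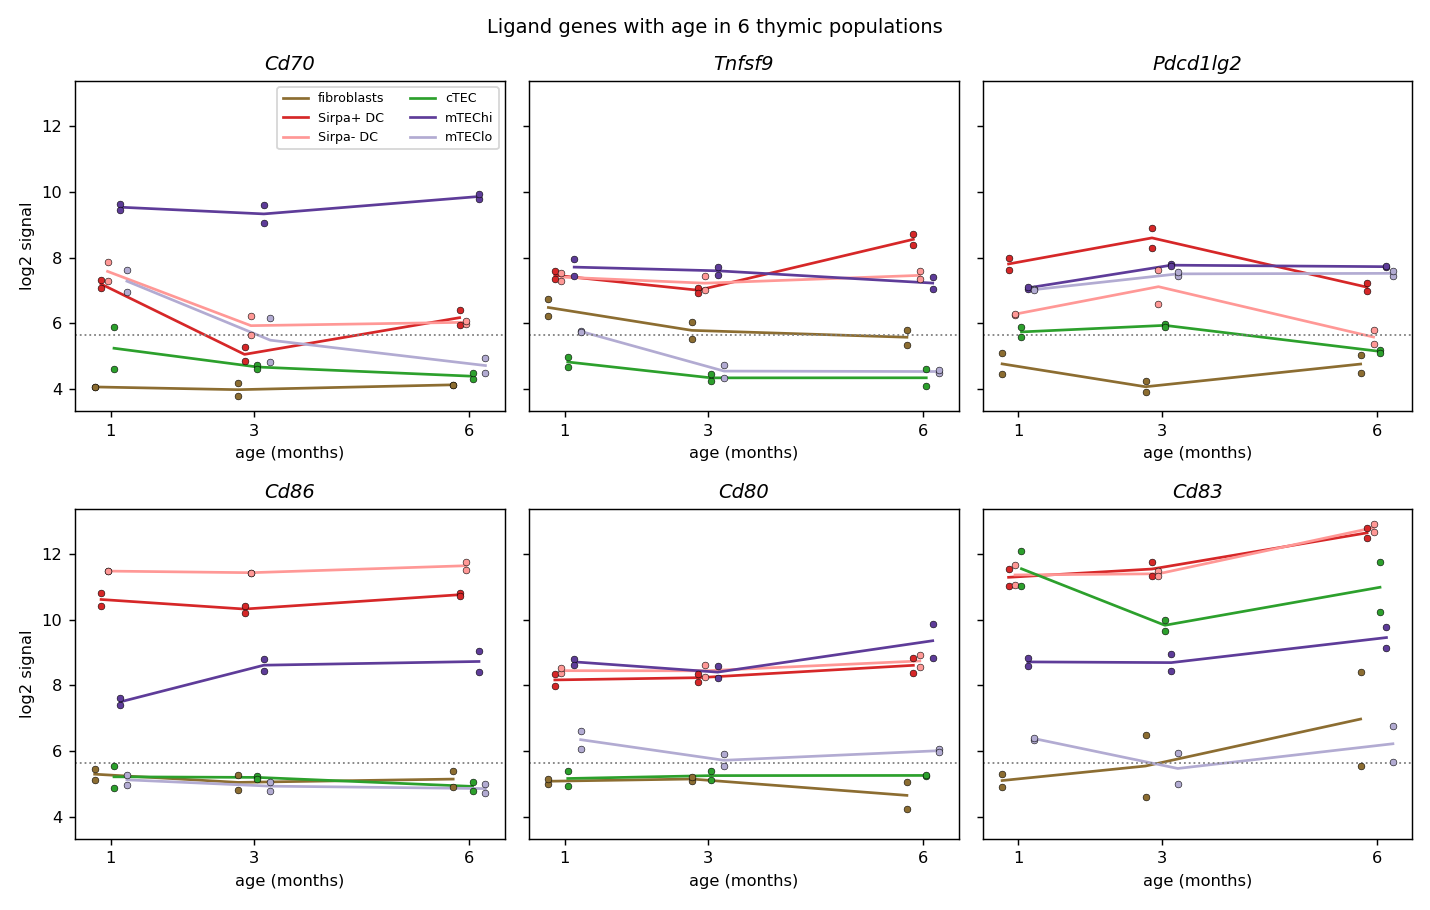
Log2 signal of 6 ligand genes (vertical axis) at 1, 3 and 6 months (horizontal axis) in the 6 populations. Points are arrays, lines join the means of 2 arrays, and the dotted line is the floor. Cd70 falls with age in mTEClo and lies between 9.05 and 9.94 in mTEChi, and Pdcd1lg2 in both DC is highest at 3 months and lowest at 6 months.

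In cTEC, 0 of 8 ligands were called by limma in any of the 3 comparisons of ages, where 5.4%, 6.45% and 3.84% of all genes were called at 3 against 1, 6 against 1 and 6 against 3 months. At an unadjusted p under 0.05 there were 1, 2 and 1, all lower at the later age. In fibroblasts, 2 ligands were called at 3 against 1 months, with 20.4% of all genes called, and 4 at 6 against 1 months, with 36.2% called, so the share of ligands is close to the background. At 6 against 3 months 0 of 8 were called (2 higher at an unadjusted p under 0.05, with 16.1% of all genes called). Cd83 was 4.89 and 5.31 at 1 month, 4.60 and 6.50 at 3 months, and 5.55 and 8.40 at 6 months. Its difference of 1.87 at 6 against 1 months (limma adjusted p = 0.0249) was 0.45 (adjusted p = 0.67) without replicate 2 at 6 months and 1.66 (0.162) without replicate 1 at 1 month. Cd274 was 0.98 higher (adjusted p = 0.0143), and Icosl (-0.96, adjusted p = 0.00685) and Tnfsf9 (-0.91, adjusted p = 0.00618) were lower at 6 than at 1 month. The Cd274 and Tnfsf9 calls at 6 months were lost without replicate 2 at 1 month (0.107 and 0.0912) or at 6 months (0.279 and 0.132), and the Icosl call without replicate 1 at 1 month (0.25) or replicate 2 at 6 months (0.1). At 3 against 1 months Cd274 was 0.88 higher and Tnfsf9 lower (-0.70), with adjusted p of 0.042 and 0.0484. Without any 1 of its 4 arrays the Cd274 call was lost (0.0778 to 0.218), and the Tnfsf9 call held in 14 of 36 fits with 1 array left out. In the same fibroblast arrays 9 of 14 thymocyte markers were higher at 6 than at 1 month, and the 3′ minus 5′ signal was 2.76, 2.11 and 1.79 at 1, 3 and 6 months. All 6 fibroblast calls were lost with the 3′ minus 5′ signal as a covariate and 4 of them with the thymocyte mean.

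Averaged over the 6 populations, ligands were called 11 times over the 3 pairs of ages. Cd70 was lower at 3 months (-1.08 ± 0.15, limma adjusted p = 0.000336, with 6.34% of all genes called) and at 6 months (-0.93 ± 0.15, adjusted p = 4.41e-05, with 36.6% called) than at 1 month, and at 3 months all 6 populations had a lower mean. Tnfsf9 was also lower at 3 months in all 6 (-0.52 ± 0.10, adjusted p = 0.0043). Icosl was lower at 6 than at 1 month in all 6 populations (-0.39 ± 0.11, adjusted p = 0.00768). Cd83 was higher at 6 than at 3 months in all 6 (1.10 ± 0.26, adjusted p = 0.00267, with 31.5% of all genes called). Pdcd1lg2 was lower at 6 than at 3 months (-0.53 ± 0.11, adjusted p = 0.000864), with 4 populations lower and 2 higher. The other 5 calls were Cd274 (0.43) and Pdcd1lg2 (0.38) higher at 3 than at 1 month, and Cd83 (0.78) and Cd274 (0.33) higher and Tnfsf9 (-0.33) lower at 6 than at 1 month. Of these the Cd274 calls held in 21 and 22 of 36 fits with 1 array left out, and the Pdcd1lg2 call in 19. The 3′ minus 5′ signal was lower at 6 months than at 1 month in the mean of each population, and with it as a covariate 6 of the 11 calls were lost. They were Cd274 (adjusted p = 0.143) and Pdcd1lg2 (0.391) at 3 against 1 months, and Cd83 (0.164), Cd274 (0.193), Icosl (0.298) and Tnfsf9 (0.278) at 6 against 1 months.

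Of the 14 probe sets of the 9 ligands, 3 ligands had more than 1. The second Cd86 probe set followed the first over the 36 arrays (r = 0.99). That r spans the populations and does not speak for the change with age in mTEChi. At 6 against 1 months this change was 1.23 on the first probe set and 0.65 with both averaged. The second Cd80 probe set (1432826_a_at) had a different balance, with means of 8.89 in mTEChi and 5.25 in mTEClo, and of 6.48 in Sirpa+ DC and 6.83 in Sirpa- DC, so that on it mTEChi stood well above the DC, while on the first they were close. Another Cd80 probe set and the second of Icosl were under the floor on all 36 arrays. The remaining Cd80 probe set (1427717_at) was above the floor on 1 array. Its means of 5.39 in mTEChi, 4.52 in Sirpa+ DC and 4.95 in Sirpa- DC were under the floor.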

How the data were processed

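The values deposited by the authors are log2 signals, 1 per probe set and array. Normalization was done in Gene Expression Commons, per the series' design text, and GCRMA is named in the submitters' processing notes. Its version is not given in the sources used here, and the log base was read from the values, which run from 2.62 to 14.58. The array medians lay between 5.61 and 5.75, and no further scaling was applied.

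Of 45101 probe sets, 64 controls, 932 with several symbols and 9160 with none were left out. Symbols came from GEO's platform annotation, which can be old. A linear model with 18 group means was fitted with limma 3.58.1 in R 4.3.3 (18 residual degrees of freedom and an intensity trend in the moderation), with two-sided tests and Benjamini-Hochberg adjustment over 14497 genes. Intervals use 18 degrees of freedom. Precision is limited by 2 arrays per group. The code was tested on simulated data. The members and gene lists were chosen with earlier results of these data known. All 9 ligands were named, with the 3 genes most like each, and from each list up to 4 called genes with the largest change. Alternatives were other filters, probe set rules, scalings, variance models, array weights, blocks, covariates, thresholds and leaving out each array. The thymus samples' replicate numbers were checked for pairing. Promoters and motif matches came from RefSeq sequences of GRCm38.p6, which covered 4 of the 9 ligands. Pairs of arrays with identical values numbered 0, and the 2 arrays of a group correlated at 0.949 to 0.994.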

Additional observations from a re-analysis of the deposited data

Results flagged for a closer look

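In 54 sets of 6 arrays, 1 for each ligand and population, a single array stood far from the other 5 in 5 sets, and chance alone gives about 1 in 20. Cd80 in fibroblasts was 4.25 on replicate 2 at 6 months, with the nearest array at 5.01, both under the floor. Cd86 in Sirpa- DC was 11.77 on replicate 2 at 6 months, with the nearest at 11.53. Cd70 in cTEC was 5.88 on replicate 2 at 1 month, with the nearest at 4.73, and was the one cTEC array above the floor. Cd70 in fibroblasts was 3.79 on replicate 1 at 3 months, with the nearest at 4.06, and Tnfsf4 in Sirpa- DC was 4.85 on replicate 1 at 6 months, with the nearest at 5.11, all under the floor.

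The change with age differed between populations in limma's F-test for Cd86 (adjusted p = 0.0293), Pdcd1lg2 (adjusted p = 0.00185), Cd70 (adjusted p = 0.00425) and Tnfsf9 (adjusted p = 0.0017). The gap between mTEChi and mTEClo was wider at 6 months than at 1 month by 1.49 for Cd86 and by 2.90 for Cd70 on the log2 scale, both by a test of the difference itself.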

How the results depend on the processing

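No result that was called with the settings of the report or under an alternative (adjusted p and, between populations, 2-fold) changed direction, whereas differences under the fold threshold did, such as Cd274 in cTEC against both mTEC (0.31, lowest -0.02) and Tnfsf9 in mTEChi against the DC (-0.01, highest 0.17). The difference of Pdcd1lg2 in the DC against the epithelium (0.25, adjusted p = 0.0256), also under 2-fold, turned to -0.02 (0.89) with the 3′ minus 5′ signal as a covariate. Of the counts of called ligands, the 4-fold threshold gave 4 instead of 7 in cTEC against both mTEC, 2 instead of 4 in the DC against the epithelium, and 0 instead of 1 in Sirpa+ DC against Sirpa- DC. With each array left out in turn, the last count was 1 to 2, with Cd86 as the second ligand (-1.02) without Sirpa+ DC replicate 2 at 1 month. With the 3′ minus 5′ signal as a covariate, a setting chosen after seeing the data like the fit without the fibroblast arrays, the mean of the 6 populations gave 6 calls instead of 11, of which 5 were among the 11 and 1 was not. Over all genes the same covariate gave 134 calls instead of 919 at 3 against 1 months and 1575 instead of 5302 at 6 against 1 months. The thymocyte covariate gave 1195 instead of 2661 in fibroblasts. The 4-fold threshold, which calls fewer genes by its construction, gave 855 instead of 2845 in mTEChi against mTEClo. The causes of the covariates' shifts were not tested. Of the age calls within populations, a fit of only the groups compared lost Cd80 in mTEChi (adjusted p = 0.211), Cd70 in mTEClo at 3 against 1 months (0.0695), Pdcd1lg2 in Sirpa- DC (0.0649) and all 6 of fibroblasts, the last also with array weights. Array weights (0.268) and quantile normalization (0.0778) lost Cd80 in mTEChi, the thymocyte covariate lost Tnfsf9 in mTEClo at 3 against 1 months (0.0594), and the 3′ minus 5′ covariate lost Cd70 in Sirpa- DC (0.0956). The replicate numbers shared between groups were not taken to pair the samples: arrays of the same age and number had residual correlations of -0.07 to 0.42, over 0.1 in 17 of 45 pairs, although in 17 of 18 groups an array correlated best with its own number. The replicate block gave 11 calls for the mean of the 6 populations, 18 within populations and 4 in the F-test, as without it. It lost Tnfsf9 in fibroblasts at 3 against 1 months (adjusted p = 0.0502). Signals under the floor, as for Tnfsf4, have no order.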

Other observations

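The receptor and maturation genes were also read over age, in the same fits. Tnfrsf9, which encodes 4-1BB, was lower at 6 months than at 1 month in mTEChi (a difference of -1.20, limma adjusted p = 0.00477), in mTEClo (-0.95, adjusted p = 0.0263) and in Sirpa+ DC (-0.97, adjusted p = 0.0473), and its ligand gene Tnfsf9 was lower in mTEClo and higher in Sirpa+ DC over the same ages. In fibroblasts 4 of 8 receptors were higher and 0 lower at 6 months, among them Cd27 (2.59) and Ctla4 (2.20), where 36.2% of all genes were called and 9 of 14 thymocyte markers were higher too. Of 17 genes of DC maturation, 1 was higher and 3 lower in mTEClo at 6 months, with 6.42% of all genes called, Eno2 at -1.47 and the cytokine signalling inhibitor Socs2 at 1.31. In mTEChi 2 were higher and 1 lower, with 9.51% of all genes called and the chemokine Ccl17 at 1.57. Of the 18 other ligand and adhesion genes, Cd276 (0.82) was higher and Vsir (-1.35) lower in mTEChi at 6 months.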
